A study of Mus musculus with 30 samples.

Results

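The genes Il12a, Tmc1, Ido2, Rab26, Rxfp3, Enkur, Tph2, Cd3e, Myo18b and Dcdc2a were followed in mouse retinal ganglion cells after their optic nerve was crushed. They are 10 of 24033 genes of a count table, and they were chosen by their levels in these same libraries, because cells that received sgRNAs against Ssrp1 exceeded control cells on average or after crush. The level differences between those groups are therefore a description and carry no test here. Crush differences within each arm share those levels, so their p-values are not independent of the choice. Per the labels, AAV2 with non-targeting sgRNAs (NT) or with Ssrp1 sgRNAs (SSRP1KO) was injected into eyes of mice with the alleles LSL-Cas9-GFP and Vglut2-Cre, so that both arms carried the same Cas9 and Cre alleles and a virus. The Vglut2 driver is shared by other glutamatergic neurons, and the cells were sorted alive on CD90.2, GFP or mCherry or on combinations of these, so not every sorted cell need have held the sgRNAs. Each arm was collected uncrushed or 1, 2, 3 or 4 days post crush (dpc), which gives 10 groups of 3 libraries. The uncrushed groups received virus too. The labels give no age and no sex, and whether the libraries of a group stem from different mice is not said, so the spread that p-values measure here may be partly technical.

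The product of Ssrp1 is part of FACT, which loosens the histones of nucleosomes ahead of RNA polymerase and puts them back behind it. Optic nerve crush severs the axons of ganglion cells, which answer with a stress and growth program and with the loss of many mature neuronal transcripts, and many of the cells later die. The 10 genes have little in common in their textbook roles. Il12a encodes the p35 chain shared by the cytokines interleukin-12 and interleukin-35, and Rxfp3 the receptor for the neuropeptide relaxin-3. Ido2 and Tph2 encode enzymes that act on tryptophan, the first towards kynurenine and the second towards serotonin in neurons. Tmc1 encodes a pore subunit of the mechanotransduction channel of inner ear hair cells. Rab26 is a small GTPase of secretory and synaptic vesicles. Enkur encodes enkurin, a protein of motile cilia and sperm, Dcdc2a a microtubule-binding protein with doublecortin domains, and Myo18b an unconventional myosin needed in striated muscle. Cd3e encodes a signalling chain of the T cell receptor.

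The deposited counts, as counts scaled to the TMM-adjusted library size (CPM), gave low levels for all 10. Per kilobase of exon, the median level over the 15 SSRP1KO libraries was highest for Ido2 (6.74 CPM per kb), followed by Il12a (3.80), Enkur (2.73), Rab26 (2.51) and Tmc1 (2.14). It was lowest for Myo18b (0.342 CPM per kb) and Dcdc2a (0.571). In the 15 NT libraries the same measure ran from 0.0812 CPM per kb for Tph2 to 1.88 for Ido2. All 10 passed the filter on low counts, and each had at least 6 NT libraries at or above its cutoff of 0.395 CPM, so none passed through the SSRP1KO libraries alone.

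Promoters were searched for 6 short motifs, none of which was in all of the 8 member promoters found. RefSeq (GRCm38.p6) held these entries for 7 of the 10 genes, with 8 start sites, and Ido2, Rab26 and Myo18b are named only. The 250 bases before the start site are printed for 5 genes that stand for different courses (a fall in NT, a rise in both arms, a rise in SSRP1KO, a level near 0 in NT, and overlapping arms), 5′ to 3′ on the strand of the gene. Capitals mark a TGACG core of the cAMP response element (Enkur, Cd3e), a TATAAA box (Tph2) or a CCAAT box (Tmc1), and the Il12a stretch held none of these.
Il12a (chr3:68690394-68690643, plus strand): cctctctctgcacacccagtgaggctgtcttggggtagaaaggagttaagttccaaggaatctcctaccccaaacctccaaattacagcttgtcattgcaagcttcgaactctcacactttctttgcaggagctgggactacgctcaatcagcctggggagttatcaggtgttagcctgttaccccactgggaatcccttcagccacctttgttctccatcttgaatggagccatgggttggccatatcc
Tph2 (chr10:115185023-115185272, minus strand): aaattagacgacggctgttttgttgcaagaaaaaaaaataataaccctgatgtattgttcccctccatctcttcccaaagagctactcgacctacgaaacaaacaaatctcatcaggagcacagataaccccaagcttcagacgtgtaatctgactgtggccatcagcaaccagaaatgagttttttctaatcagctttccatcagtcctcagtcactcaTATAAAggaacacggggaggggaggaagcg
Tmc1 (chr19:20954203-20954452, minus strand): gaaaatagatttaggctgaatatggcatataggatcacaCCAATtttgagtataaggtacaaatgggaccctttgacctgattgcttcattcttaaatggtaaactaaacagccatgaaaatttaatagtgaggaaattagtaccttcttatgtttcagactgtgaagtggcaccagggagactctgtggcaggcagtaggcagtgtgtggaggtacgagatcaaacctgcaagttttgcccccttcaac
Enkur (chr2:21205366-21205615, minus strand): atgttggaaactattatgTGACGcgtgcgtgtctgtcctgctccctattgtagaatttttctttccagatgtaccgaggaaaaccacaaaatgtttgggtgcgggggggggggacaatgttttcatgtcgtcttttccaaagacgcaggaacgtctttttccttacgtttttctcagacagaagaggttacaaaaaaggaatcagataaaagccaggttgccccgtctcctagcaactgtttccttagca
Cd3e (chr9:45009612-45009861, minus strand): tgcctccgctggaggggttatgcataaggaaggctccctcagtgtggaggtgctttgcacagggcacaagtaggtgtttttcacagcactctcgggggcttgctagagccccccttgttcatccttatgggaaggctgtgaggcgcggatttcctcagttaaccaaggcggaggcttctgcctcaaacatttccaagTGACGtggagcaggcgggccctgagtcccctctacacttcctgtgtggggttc

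Searched on both strands, TGACG was in 2 of the 8 member promoters, at -232 in Enkur and -53 in Cd3e, and in 17.8% of all 32851 promoters of the table. CCAAT was in 2 of 8 (Tmc1 at -211 and Rxfp3 at -215) and in 33.8% of all, and TATAAA in 1 of 8 (Tph2 at -30) and in 12.4%. GGGCGG was in 1 of 8, at the second Il12a start, and in 32.7% of all, CANNTG in 6 of 8 and in 66.2%, and TGANTCA in 0 of 8 and in 6.75%. In Cd3e the TGACG match overlaps the CANNTG match at -57. A match is a description of the letters and not of a bound site.

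Gene totals ran from 9715972 to 34420978 counts per library. Ssrp1 fell by 0.89 ± 0.10 on the log2 scale as the mean of the 5 times (edgeR adjusted p = 2.11e-06). By single times it was called at 1dpc, 3dpc and 4dpc, and neither without crush (-0.28 ± 0.23, edgeR adjusted p = 0.522) nor at 2dpc (-0.74 ± 0.23, 0.111). In the library labelled SSRP1KO no crush replicate 3 it stood at 66.9 CPM, inside the 61.0 to 67.9 CPM of uncrushed NT. There were 3 libraries that resembled their own group least, namely that library (mean correlation 0.921 with its mates, against 0.952 between them), the library labelled SSRP1KO 2dpc replicate 5 (0.898 against 0.969) and NT 2dpc replicate 3 (0.933 against 0.976). In NT 2dpc replicate 3 Ssrp1 stood at 36.1 CPM, below the 39.0 to 45.4 CPM of SSRP1KO at 2dpc. All 10 defining ganglion cell markers were in the table. Their summed level was lower in every SSRP1KO library than in every NT library of the same time without crush (6550 to 7480 against 9320 to 10600 CPM), at 1dpc (6060 to 6600 against 6670 to 8560 CPM), at 3dpc (4950 to 6070 against 7010 to 7470 CPM) and at 4dpc (4350 to 4730 against 5990 to 9540 CPM), and overlapped at 2dpc. The part of this difference in the member levels was not tested. In bulk samples fewer cells of a type and less RNA per cell cannot be told apart. Sums for rod and cone markers (136 to 970 CPM in NT, 272 to 3800 CPM in SSRP1KO), Muller glia and astrocytes (99.3 to 470 and 180 to 928 CPM), microglia (18.9 to 380 and 44.1 to 455 CPM), bipolar cells (154 to 247 and 183 to 460 CPM), amacrine cells (386 to 795 and 313 to 1180 CPM) and vascular cells (6.05 to 23.1 and 8.91 to 122 CPM) overlapped between the arms over all times. Within a time, some were apart. Without crush, microglia (116 to 455 against 44.9 to 73.5 CPM), Muller glia and astrocytes (253 to 928 against 173 to 239 CPM) and vascular cells (17.0 to 37.2 against 6.05 to 15.5 CPM) were higher in every SSRP1KO library than in every NT library. The same held for amacrine and bipolar cells at 1dpc, photoreceptors and vascular cells at 2dpc and bipolar cells at 3dpc, while photoreceptors were lower in SSRP1KO at 1dpc. Their part in the member levels was not tested. Sex differed between groups, and so goes partly with crush and with the sgRNAs. Xist was at 0.364 to 190 CPM in uncrushed NT, 1050 to 1690 CPM in NT at 1dpc and 3020 to 4350 CPM in NT at 4dpc. In SSRP1KO it was at 1290 to 2610 CPM without crush, 0.188 to 0.856 CPM at 1dpc and 2dpc and 2260 to 3240 CPM at 4dpc. Some libraries held both Xist and Y-linked RNA, such as NT 3dpc replicate 1 (892 and 176 CPM).

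As the mean of the 5 times, all 10 genes were higher in SSRP1KO, by 0.78 ± 0.22 (Rxfp3) to 3.05 ± 0.46 (Tph2) on the log2 scale, with a median of 2.02 beside 0.02 for all 16621 genes tested. In that order among all genes they stood from rank 143 (Tph2) and 184 (Il12a) to 1932 (Rxfp3). The genes were not all higher at each single time. Every SSRP1KO library lay above every NT library of its time for 2 of 10 genes without crush (Enkur and Myo18b, beside 8.31% of all genes), for 3 at 2dpc (7.03%), 9 at 3dpc (13.1%) and 9 at 4dpc (16.7%). At 1dpc it held for the members other than Dcdc2a and Cd3e, beside 1666 of all 16621 genes. Since the choice used these libraries, nothing is read from these counts. No gene was separated at all 5 times: Il12a, Ido2, Enkur and Myo18b were at 4, Rxfp3 at 2 and Cd3e at 1. Rxfp3 even differed by -1.07 ± 0.49 without crush, so for it the label is not borne out before injury.

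**Figure D1:**
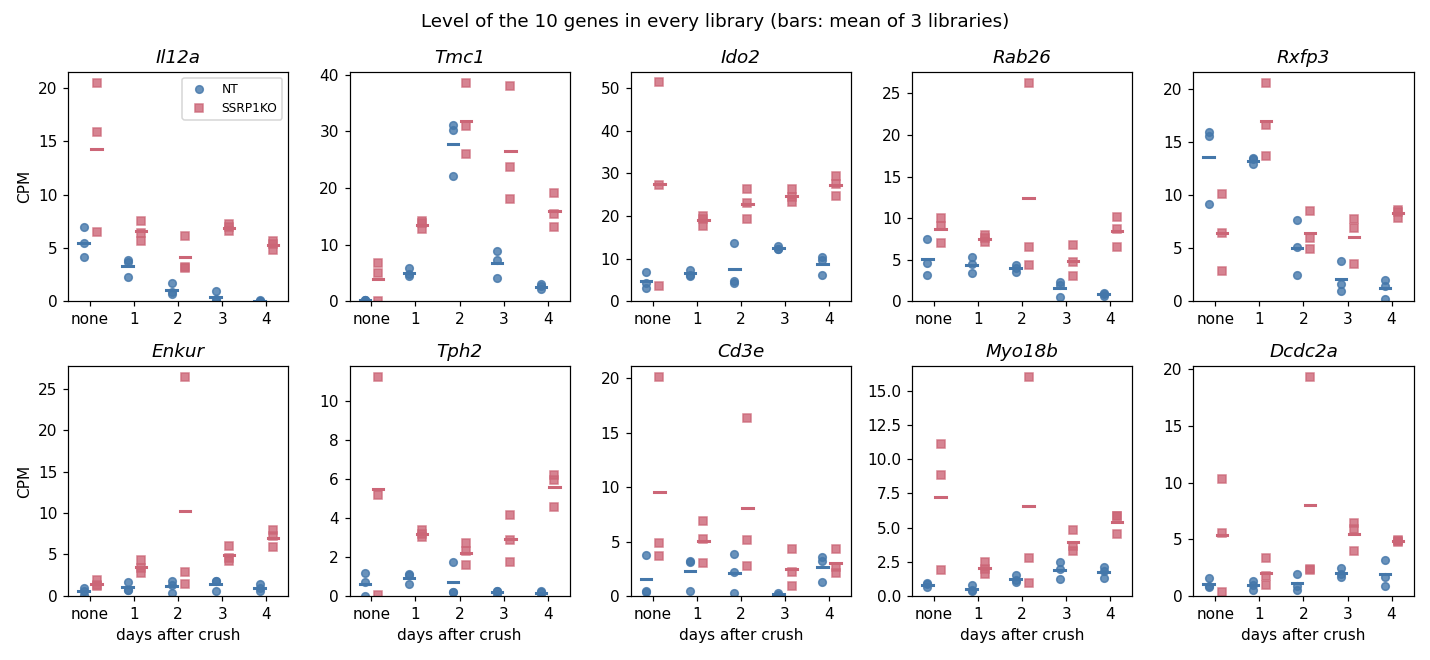
CPM of each gene (vertical axis, its own scale per panel) without crush and at 1 to 4 days after crush, with 1 circle per NT library and 1 square per SSRP1KO library, and bars at the mean of 3. Mean Il12a is 5.52 CPM without crush and 0.0707 CPM at 4dpc in NT, and 14.3 and 5.28 CPM in SSRP1KO. Single squares stand far off for several genes without crush and at 2dpc.

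The library labelled SSRP1KO no crush replicate 3 did not share the pattern of its mates. Replicates 1 and 2 of that group lay above every uncrushed NT library for 7 and 9 of the 10 genes, and replicate 3 for 4, with 3 genes below every NT library. With that library left out, 7 of the 10 genes were separated without crush, beside 17.9% of all genes. The library labelled SSRP1KO 2dpc replicate 5 was the highest of all 30 for Tmc1, Rab26, Enkur, Myo18b and Dcdc2a and the second highest for Cd3e.

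**Figure D2:**
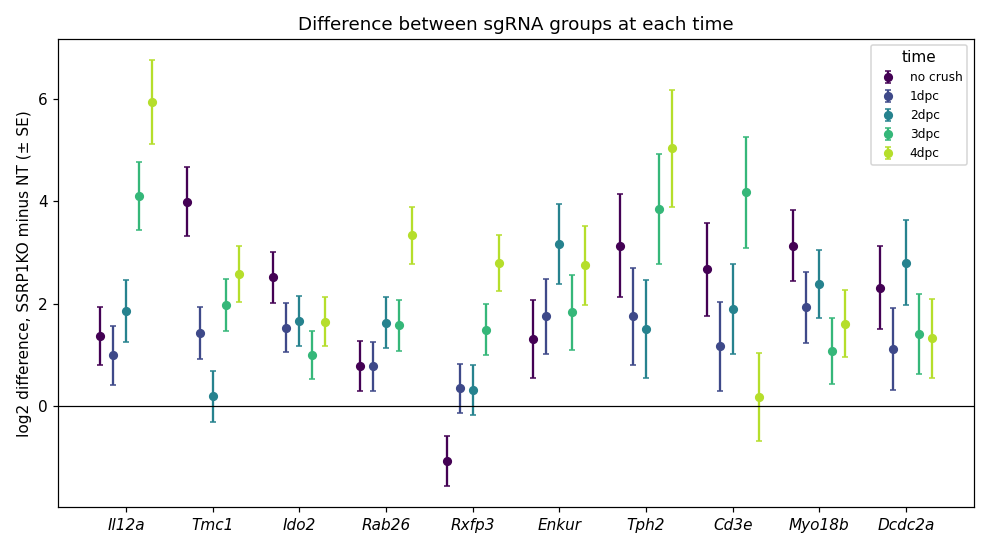
Log2 difference of SSRP1KO minus NT (points, ± SE, 3 against 3 libraries) for each gene at each of the 5 times. Il12a and Tph2 differ most at 4dpc (5.93 and 5.03), Tmc1 differs by 0.19 at 2dpc, Cd3e by 0.18 at 4dpc, and Rxfp3 lies below 0 without crush.

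The signalling genes Il12a and Rxfp3 fell in NT after crush. Il12a stood at 5.45, 4.13 and 6.97 CPM in uncrushed NT, at 3.74, 2.26 and 3.91 CPM at 1dpc, then at 1.72, 0.737 and 0.887 CPM at 2dpc. It then stood at 0.234, 0.970 and 0.00 CPM at 3dpc, then at 0.00, 0.0347 and 0.177 CPM at 4dpc, which were 0, 1 and 4 counts. The libraries of 2dpc, 3dpc and 4dpc all lay below every uncrushed one. In SSRP1KO, Il12a stood at 15.9, 20.5 and 6.53 CPM without crush, at 6.46, 7.56 and 5.68 CPM at 1dpc, then at 3.19, 3.13 and 6.10 CPM at 2dpc. At 3dpc it stood at 7.22, 6.59 and 6.98 CPM and at 4dpc at 5.35, 4.81 and 5.67 CPM. Of the last 6 values 4 lay within the range of uncrushed NT libraries and the others just above it, and the library labelled replicate 3 of the uncrushed group lay in that range as well.

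The choice of Il12a used its levels in both arms, so the p-values here are a description. The alternatives refit the same libraries and do not lift that limit. By edgeR's quasi-likelihood test, Il12a fell in NT at 2dpc, with a log2 difference of -2.28 ± 0.61 (adjusted p = 0.00836). The difference was -3.77 ± 0.66 at 3dpc (edgeR adjusted p = 6.34e-05) and -5.99 ± 0.82 at 4dpc (1.43e-06). Il12a kept these calls in each of 13 alternatives. In SSRP1KO it fell by 1.80 ± 0.57 at 2dpc (adjusted p = 0.0387), a call kept in 6 of 13 alternatives with an adjusted p of 0.00294 to 0.309. At 4dpc the SSRP1KO difference was -1.44 ± 0.57 (edgeR adjusted p = 0.0963). It was -1.78 ± 0.58 (edgeR adjusted p = 0.0489) when the library labelled SSRP1KO no crush replicate 3 was left out.

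Rxfp3 stood at 16.0, 15.6 and 9.13 CPM in uncrushed NT and at 13.5, 13.4 and 12.9 CPM at 1dpc. It stood at 7.62, 5.12 and 2.44 CPM at 2dpc, at 1.67, 1.01 and 3.78 CPM at 3dpc, then at 2.03, 1.49 and 0.266 CPM at 4dpc. The last 9 values lay below every uncrushed library. In SSRP1KO it stood at 10.1, 2.83 and 6.41 CPM without crush, at 20.6, 16.6 and 13.7 CPM at 1dpc, then at 8.57, 7.87 and 8.46 CPM at 4dpc. At 2dpc it stood there at 8.48, 4.89 and 5.93 CPM and at 3dpc at 7.75, 3.49 and 6.92 CPM, so SSRP1KO libraries overlapped NT at both times. The choice of Rxfp3 used these levels, so its p-values are a description too. Rxfp3 fell in NT, with a difference of -1.40 ± 0.49 at 2dpc (edgeR adjusted p = 0.0462, a call kept in 6 of 13 alternatives). It differed by -2.65 ± 0.52 at 3dpc (edgeR adjusted p = 0.000256) and by -3.50 ± 0.56 at 4dpc (1.43e-05). In SSRP1KO it passed at no time by edgeR, with differences of -0.09 to 1.39, and 1 of the 4 times, 1dpc, had an unadjusted p under 0.05.

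Rab26, the vesicle GTPase, had a like course. In uncrushed NT it stood at 7.55, 3.12 and 4.59 CPM, and at 3dpc and 4dpc at 1.95, 2.30 and 0.584 CPM and at 0.856, 0.659 and 1.02 CPM. At 1dpc and 2dpc the NT libraries held 3.36 to 5.31 CPM. The libraries of 3dpc and 4dpc lay below all other NT libraries. In SSRP1KO it stood at 7.07, 9.97 and 9.11 CPM without crush, at 7.56, 7.94 and 7.15 CPM at 1dpc, then at 4.32, 6.57 and 26.3 CPM at 2dpc. It stood at 6.78, 3.02 and 4.69 CPM at 3dpc, then at 10.2, 8.73 and 6.54 CPM at 4dpc, above every NT library of the same time. In NT it fell, with a difference of -1.65 ± 0.51 at 3dpc (edgeR adjusted p = 0.0158, kept in 11 of 13 alternatives and 0.104 without NT 3dpc replicate 3 or NT no crush replicate 1) and of -2.59 ± 0.54 at 4dpc (0.000522). In SSRP1KO no difference from uncrushed passed, from -0.85 at 3dpc to 0.50 at 2dpc. Rab26 overlaps Traf7 and the antisense gene Rab26os, and with the strand setting not given, reads of these genes cannot be told apart.

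Tmc1, the hair cell channel gene, rose after crush in both arms. In uncrushed NT it stood at 0.200, 0.243 and 0.293 CPM, and at 1dpc at 4.55, 5.85 and 4.75 CPM. It peaked at 30.3, 31.1 and 22.1 CPM at 2dpc and then stood at 4.09, 8.89 and 7.24 CPM at 3dpc and 2.14, 2.74 and 3.01 CPM at 4dpc. All 12 NT libraries after crush lay above the uncrushed ones. In SSRP1KO the level was 6.86, 5.05 and 0.0599 CPM without crush, 12.7, 13.8 and 14.2 CPM at 1dpc and 31.0, 26.1 and 38.6 CPM at 2dpc. It remained at 38.0, 18.0 and 23.7 CPM at 3dpc, then at 15.4, 13.2 and 19.2 CPM at 4dpc. The arms overlapped at 2dpc, and at 1dpc, 3dpc and 4dpc all SSRP1KO libraries lay above all NT ones. The lowest uncrushed SSRP1KO value, in the library labelled replicate 3, lay below every NT library.

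The rise of Tmc1 in NT was 4.32 ± 0.67 on the log2 scale at 1dpc (edgeR adjusted p = 0.000179), 6.78 ± 0.69 at 2dpc (3.36e-08), 4.73 ± 0.67 at 3dpc (2.99e-06) and 3.40 ± 0.68 at 4dpc (0.000308), and it passed in every alternative run for these 4 times. In SSRP1KO the rise was 2.98 ± 0.53 at 2dpc (edgeR adjusted p = 0.000321), 2.72 ± 0.53 at 3dpc (0.00054) and 1.98 ± 0.52 at 4dpc (0.00899), while 1.75 ± 0.52 at 1dpc did not pass (0.0514). In a fit of only the 6 libraries compared, those calls were lost (edgeR adjusted p = 0.151, 0.0823 and 0.157), and with a score for sex as a covariate the call at 2dpc was lost (0.0701). With the library labelled SSRP1KO no crush replicate 3 left out, the rises were 1.19 ± 0.31 at 1dpc (edgeR adjusted p = 0.0261), 2.42 ± 0.33, 2.15 ± 0.33 and 1.42 ± 0.32.

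The tryptophan enzyme genes Ido2 and Tph2 were higher in SSRP1KO before and after crush. Ido2 stood at 4.40, 6.84 and 3.23 CPM in uncrushed NT and at 27.4, 51.4 and 3.66 CPM in uncrushed SSRP1KO, the last value again in the library labelled replicate 3. After crush, the 12 SSRP1KO libraries ran from 17.6 to 29.3 CPM with a median of 24.0 CPM, and the 12 NT libraries from 4.26 to 13.6 CPM with a median of 8.50 CPM. These ranges did not overlap. In NT, Ido2 rose by 1.37 ± 0.48 at 3dpc (edgeR adjusted p = 0.0377), to 12.9, 12.4 and 12.2 CPM. That call was kept in 6 of 13 alternatives (adjusted p of 6.04e-05 to 0.156). No crush difference of Ido2 passed in SSRP1KO, from -0.54 at 1dpc to -0.02 at 4dpc. Without the 3 libraries that stood apart, Ido2 fell in SSRP1KO by 1.05 ± 0.25 at 1dpc (edgeR adjusted p = 0.00721).

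Tph2 was close to the detection limit in NT. It stood at 0.700, 0.00 and 1.17 CPM without crush, at 0.615, 1.11 and 1.09 CPM at 1dpc, then at 0.215, 1.76 and 0.222 CPM at 2dpc. At 3dpc it stood at 0.234, 0.121 and 0.234 CPM and at 4dpc at 0.00, 0.243 and 0.177 CPM. These were the lowest NT groups, and both overlapped uncrushed NT, where 1 library held none. In SSRP1KO it stood at 11.2, 5.17 and 0.0599 CPM without crush, then at 3.02, 3.38 and 3.16 CPM at 1dpc. It was at 2.29, 2.71 and 1.60 CPM at 2dpc, at 4.12, 1.72 and 2.84 CPM at 3dpc, then at 4.54, 5.95 and 6.19 CPM at 4dpc. All SSRP1KO libraries lay above all NT libraries at 1dpc, 3dpc and 4dpc. No crush difference of Tph2 passed by edgeR in either arm, and none of the 8 had an unadjusted p under 0.05 or a DESeq2 call.

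The cilium and cytoskeleton genes differed in when they were high. Enkur, the enkurin gene, stood at 1.00, 0.162 and 0.624 CPM in uncrushed NT and at 0.328 to 1.79 CPM in the 12 NT libraries after crush. In SSRP1KO it stood at 1.96, 1.29 and 1.14 CPM without crush, at 3.41, 4.39 and 2.75 CPM at 1dpc, then at 2.88, 1.45 and 26.4 CPM at 2dpc. It was at 6.02, 4.26 and 4.56 CPM at 3dpc, then at 7.23, 5.95 and 7.90 CPM at 4dpc. All SSRP1KO libraries exceeded all NT libraries of their time except at 2dpc. Enkur rose in SSRP1KO, with differences of 2.79 ± 0.76 at 2dpc (edgeR adjusted p = 0.0146) and 2.25 ± 0.75 at 4dpc (0.0428). The rise at 2dpc rested on the library labelled SSRP1KO 2dpc replicate 5, without which it was 0.55 ± 0.62 (edgeR adjusted p = 0.624), and it was kept in 6 of 13 alternatives. The call at 4dpc was lost when any of the 6 libraries compared was left out (edgeR adjusted p = 0.0663 to 0.136), with a difference of 2.10 to 2.53. In NT no difference of Enkur passed, from 0.81 to 1.23.

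Myo18b and Dcdc2a were high in the uncrushed SSRP1KO libraries other than the one labelled replicate 3. Myo18b stood at 0.850, 0.972 and 0.660 CPM in uncrushed NT and at 8.82, 11.1 and 1.86 CPM in uncrushed SSRP1KO. After crush it ran from 0.331 to 2.45 CPM in NT and stood in SSRP1KO at 1.99, 1.60 and 2.48 CPM at 1dpc and 2.76, 0.951 and 16.0 CPM at 2dpc. It then stood there at 3.66, 3.27 and 4.81 CPM at 3dpc, then at 5.82, 4.49 and 5.84 CPM at 4dpc. Only at 2dpc did the arms overlap. By edgeR with all libraries no crush difference of Myo18b passed in either arm. Without the 3 libraries that stood apart, it fell in SSRP1KO, with differences of -2.30 ± 0.43 at 1dpc (edgeR adjusted p = 0.000978), -2.43 ± 0.50 at 2dpc (0.00122) and -1.35 ± 0.43 at 3dpc (0.0278). Myo18b overlaps the antisense gene 1700095B10Rik, whose reads cannot be told apart from its own.

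Dcdc2a stood at 0.800, 0.850 and 1.58 CPM in uncrushed NT and at 5.54, 10.3 and 0.300 CPM in uncrushed SSRP1KO. In NT after crush it ran from 0.532 to 3.19 CPM. In SSRP1KO it stood at 3.37, 0.929 and 1.77 CPM at 1dpc, at 2.29, 2.38 and 19.3 CPM at 2dpc, at 3.92, 6.42 and 5.93 CPM at 3dpc, then at 4.82, 4.73 and 4.93 CPM at 4dpc. The arms overlapped without crush and at 1dpc and were separate from 2dpc on. None of its crush differences passed by edgeR, and none of the 8 had an unadjusted p under 0.05 or a DESeq2 call. Without the 3 libraries that stood apart, it fell in SSRP1KO by 1.96 ± 0.54 at 1dpc (edgeR adjusted p = 0.0191). Over the 30 libraries Dcdc2a and Myo18b had the highest correlation of any pair of members (Pearson's r = 0.85 of log2(CPM + 0.5)), a value that shares the sgRNA difference, the libraries and their depth. The median over all pairs was 0.44.

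Cd3e, the T cell receptor gene, had the least stable difference. It stood in NT at 3.75, 0.445 and 0.367 CPM without crush, at 3.22, 0.453 and 3.11 CPM at 1dpc, then at 2.20, 3.81 and 0.222 CPM at 2dpc. At 3dpc it stood at 0.117, 0.243 and 0.0389 CPM and at 4dpc at 3.21, 3.61 and 1.24 CPM. In SSRP1KO it stood at 3.71, 4.86 and 20.1 CPM without crush, at 5.25, 3.04 and 6.92 CPM at 1dpc, then at 2.72, 5.12 and 16.4 CPM at 2dpc. It ran from 0.898 to 4.35 CPM at 3dpc and was at 2.06, 2.69 and 4.34 CPM at 4dpc. The arms overlapped at every time except 3dpc. In NT, Cd3e fell by 3.45 ± 1.08 at 3dpc (edgeR adjusted p = 0.0184), a call lost without NT 3dpc replicate 1 (0.0657), NT 3dpc replicate 3 (0.0871) or NT no crush replicate 1 (0.359, a difference of -1.58). As the mean of the 5 times the difference between the arms was 2.02 ± 0.41, and without the 3 libraries that stood apart it was 1.48 ± 0.36.

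All 10 T and NK cell markers were in the table, and their summed level was 2.53 to 15.3 CPM in NT and 6.84 to 25.9 CPM in SSRP1KO. It was higher in every SSRP1KO library than in every NT library without crush (11.6 to 25.9 against 2.53 to 8.05 CPM) and at 3dpc (9.01 to 19.6 against 3.58 to 6.89 CPM), and overlapped at the other times. In the library labelled SSRP1KO no crush replicate 3, where Cd3e was highest, Cd4 (11.0 CPM), Cd3g (2.40 CPM) and Cd2 (2.64 CPM) were also the highest of the 30 libraries, whereas Nkg7 (0.240 CPM) and Cd3d (0.360 CPM) were below both of its mates and Cd247 stood at 0.0599 CPM. In the library labelled SSRP1KO 2dpc replicate 5, Cd3e stood at 16.4 CPM while Cd3d, Cd247 and Cd2 held no count and Cd3g stood at 0.0570 CPM. Other markers were present in that library, with Cd4 at 3.19 CPM, Zap70 at 2.40 CPM, Nkg7 at 0.513 CPM, Cd8a at 0.456 CPM and Lck at 0.228 CPM. The part of T cell RNA in the Cd3e level was not tested in any library. Cd3d, which lies 11.4 kb from Cd3e and encodes a partner chain, had a difference of 1.29 ± 0.51 that did not pass by edgeR (adjusted p = 0.0723). Its unadjusted edgeR p was under 0.05, and DESeq2 called it.

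**Figure D3:**
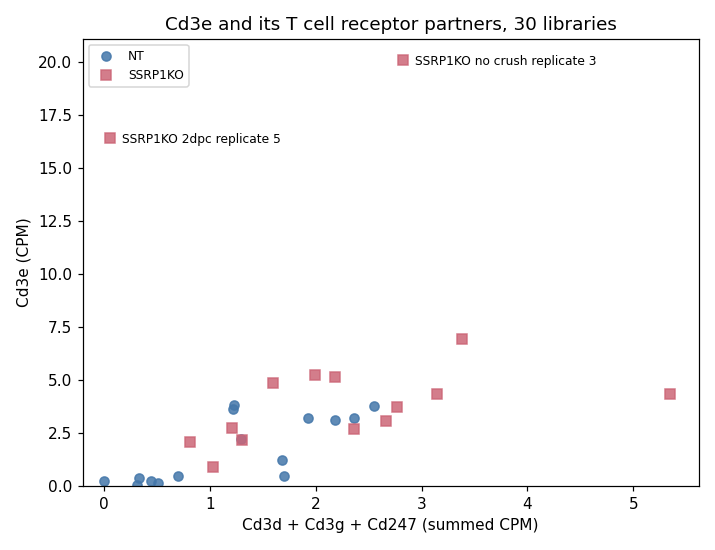
Cd3e CPM (vertical axis) against the summed CPM of its partner chains Cd3d, Cd3g and Cd247 (horizontal axis), 1 point per library, circles for NT and squares for SSRP1KO. The labelled library of 2dpc holds 16.4 CPM of Cd3e with almost no partner chain, and the labelled uncrushed library holds the highest Cd3e level, 20.1 CPM.

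Read as counts of members called by edgeR, the crush response in NT was 1 of 10 higher and 0 lower at 1dpc (beside 1.38% and 0.475% of all genes), 1 higher and 2 lower at 2dpc (9.47% and 9.35%), 2 higher and 4 lower at 3dpc (11.9% and 12.2%) and 1 higher and 3 lower at 4dpc (14.0% and 13.2%). In SSRP1KO 0 of 10 passed at 1dpc (beside 4.04% of all genes in either direction). Of these 10, Tmc1, Rxfp3 and Myo18b had an unadjusted p under 0.05, and DESeq2 called 1, Myo18b, lower. In SSRP1KO 2 were higher and 1 lower at 2dpc (7.64% and 4.03%), 1 higher and 0 lower at 3dpc (8.77% and 5.75%) and 2 higher and 0 lower at 4dpc (6.88% and 6.20%). Levels of both arms, without and after crush, had a part in the choice of these genes. Falls and rises after crush in either arm share those values, so they support nothing about the choice. The difference between the responses of the arms was not tested, for the same reason. With a score for sex as a covariate, 0 members passed in SSRP1KO at 2dpc, and the differences between the arms over the 5 times ran from 0.80 (Rxfp3) to 3.12 (Tph2).

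**Figure D4:**
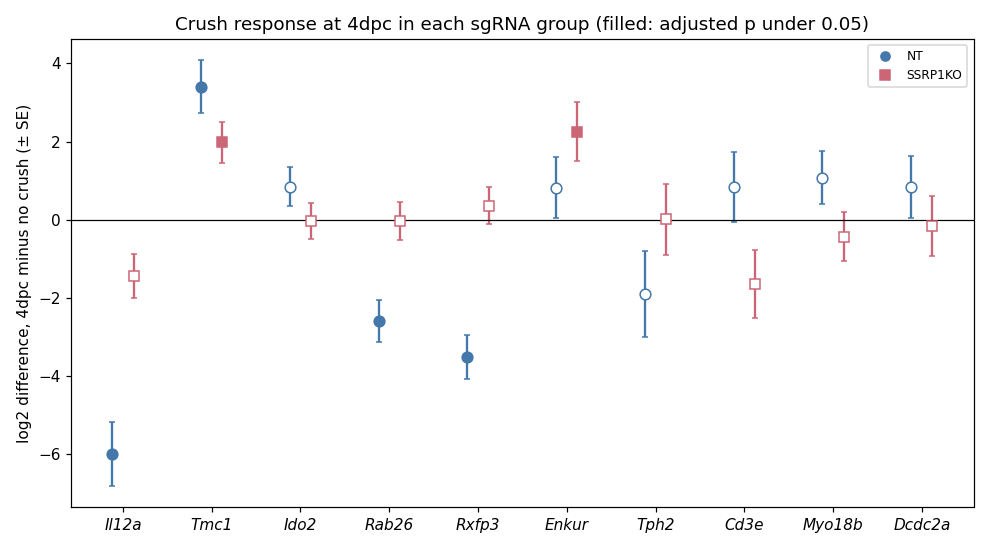
Log2 difference of 4dpc minus no crush (± SE, 3 against 3 libraries) in NT (circles) and in SSRP1KO (squares), filled where edgeR's adjusted p was under 0.05. Il12a, Rab26 and Rxfp3 fell in NT, Tmc1 rose in both arms and Enkur rose in SSRP1KO.

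Genes of the same pathways were read from 10 lists, by their mean difference of SSRP1KO and NT, where 9.64% of all genes passed higher and 10.2% lower. Of 13 tested genes of the interleukin-12 family and its signalling, 0 passed in either direction by edgeR, with a median of 0.15. Of these, 3 had an unadjusted p under 0.05, Il12rb1 and Stat3 among them, and DESeq2 called 1, the receptor gene Il12rb1. Of 9 genes of the kynurenine pathway, 2 were higher and 0 lower (median 0.54): Afmid, which makes kynurenine from formylkynurenine (0.54 ± 0.14, edgeR adjusted p = 0.00878), and Qprt, which leads on to NAD (2.10 ± 0.75, 0.0467, kept in 13 of 36 alternatives). Of 14 serotonin genes, 4 were higher and 1 lower (median 0.48). Among them Ddc, the decarboxylase that finishes serotonin, was higher by 2.46 ± 0.66 (0.00889), with medians of 0.0810 CPM in NT and 0.542 CPM in SSRP1KO. Pcbd1, which recycles the pterin cofactor of Tph2, was higher by 0.61 ± 0.13 (edgeR adjusted p = 0.0011), and Pts, which makes that cofactor, was lower by 0.28 on the log2 scale in a call kept in 10 of 36 alternatives.

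Of 19 genes of motile cilia and the axoneme, 7 were higher and 1 lower (median 0.55). Dnah5, an axonemal dynein, was higher by 1.54 ± 0.32 (edgeR adjusted p = 0.00126), with a median of 1.80 CPM in NT and 5.60 CPM in SSRP1KO. Hydin, a central pair protein, was higher by 0.71 ± 0.16 in the fit (edgeR adjusted p = 0.00202). Its medians ran the other way, at 25.0 CPM in NT (0.962 to 33.8 CPM) and 22.3 CPM in SSRP1KO (5.95 to 47.9 CPM). The channel gene Trpc1 had a difference of -0.25 (edgeR adjusted p = 0.016). Of 14 myosin and muscle partner genes, 4 were higher and 4 lower (median 0.13). The sarcomere genes Myom1 (1.22 ± 0.22, edgeR adjusted p = 0.000374) and Ttn (0.88 ± 0.17, 0.00053) were higher, and Myo18a (-0.38 ± 0.09), the paralogue of Myo18b, was lower. Of 15 T cell genes, 3 were higher and 1 lower (median 1.00). Zap70 (1.30 ± 0.37, edgeR adjusted p = 0.0131) and Cd5 (1.49 ± 0.43, 0.0151) act in T cell receptor signalling, and Thy1, the CD90 antigen used in the sort, was lower by 0.32 ± 0.06 on the log2 scale. Without the 3 libraries that stood apart, Cd5 was at 1.01 (edgeR adjusted p = 0.0852).

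Of 14 genes of the TMC family and the hair cell channel complex, 1 was higher and 1 lower (median 0.47). These were Tmie (0.52 ± 0.17, edgeR adjusted p = 0.0275, and 0.0562 without SSRP1KO 2dpc replicate 5) and Myo7a (-0.71 ± 0.18, 0.00549), a myosin of stereocilia. Of 17 secretory Rab genes, 1 was higher and 2 lower (median -0.06): Rab37 at 0.58 ± 0.14, Rab3c at -0.25 ± 0.05 and Rab10 at -0.29 ± 0.07. Of 6 relaxin peptide and receptor genes, 1 was higher (median 0.32). This was Rln3, the ligand of Rxfp3, at a median of 0.00 CPM in NT and 0.191 CPM in SSRP1KO (3.89 ± 1.10, edgeR adjusted p = 0.0148). It did not pass without SSRP1KO no crush replicate 1 or SSRP1KO 2dpc replicate 3. The SE was 9108.56 and 7939.41 in those fits, so they cannot decide the call. Of 7 doublecortin family genes, 2 were lower (median -0.02), Dclk1 by 0.26 ± 0.07 and Dcx by 0.25 ± 0.08 on the log2 scale, the latter kept in 25 of 36 alternatives.

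The genes beside them on the chromosome passed the test about as often as genes in general. Of 20 nearest tested neighbours, 1 on each side, 2 passed as higher and 2 as lower, beside 9.64% and 10.2% of all genes. Thnsl1, which starts 0.359 kb from Enkur on the other strand, was higher by 0.32 ± 0.10 (edgeR adjusted p = 0.0305) beside 2.16 for Enkur. Aldh1a7, 55.9 kb from Tmc1, was higher by 1.48 ± 0.52 (0.0426), at medians of 0.301 and 0.464 CPM. Zfand5 on the other side of Tmc1 (-0.43 ± 0.11) and Zmat4 beside Ido2 (-0.27 ± 0.08) were lower. Ido1, the paralogue 7.80 kb from Ido2, differed by 2.16 ± 0.94 and did not pass (edgeR adjusted p = 0.107), at medians of 0.00 CPM in NT and 0.0816 CPM in SSRP1KO. Mrs2 and Nrsn1 beside Dcdc2a differed by 0.04 ± 0.07 and 0.02 ± 0.08, and Trhde and Tbc1d15 beside Tph2 by -0.01 ± 0.15 and -0.11 ± 0.07.

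**Figure D5:**
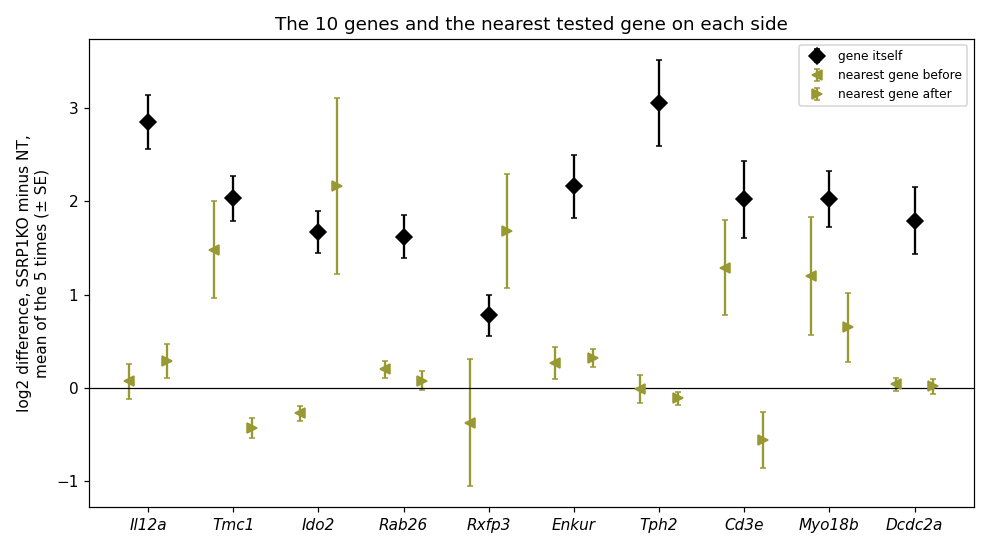
Log2 difference of SSRP1KO minus NT as the mean of the 5 times (± SE, 15 against 15 libraries) for each gene (diamonds) and for the nearest tested gene before and after it on the chromosome (triangles). The neighbours of Il12a, Rab26, Tph2 and Dcdc2a lie between -0.11 and 0.29, and Ido1, Adamts12, Cd3d and 1700034G24Rik lie above 1 but did not pass the test.

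By Pearson's r of log2(CPM + 0.5) over the 30 libraries, among 12924 genes with a mean of at least 1 CPM, Il12a was most like Tmem255a (r = 0.91). Dcdc2a was most like Tsacc (0.88), Tph2 like the Hes family gene Hes3 (0.87), Myo18b like the nuclear envelope gene Syne2 (0.87), Rab26 like Rab36 (0.86) and Rxfp3 like the orphan receptor gene Gpr165 (0.86). Ido2 was most like Dnah5 (0.85), Tmc1 like Tox4 (0.85), Enkur like the cold-sensing channel gene Trpm8 (0.84) and Cd3e like the transcription factor gene Runx2 (0.82). The points share libraries, depth and the sgRNA difference. With pseudocounts of 0.1 and 2, the most similar gene was the same in both for Il12a and Dcdc2a and changed in at least 1 for the other 8.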

How the data were processed

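For 30 libraries the authors deposited raw counts of each gene, and in another table raw counts of 205758 repeat intervals. The submitters' processing notes list STAR, HTSeq, bcl2fastq 2.17 and the build GRCm38 (mm10), with no roles. The strand setting of the counting was not given in the sources used here, nor was the annotation. SMART-Seq libraries carry no molecular identifiers in these counts, so errors from counts cover counting error only. Of 24060 symbols, 27 that had turned into dates were dropped (0.275% of a library or less). Coordinates came from GENCODE M21 (94.8% of the symbols matched).

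The tests used edgeR 4.0.16 (R 4.3.3), TMM scaling, filterByExpr on the 10 groups (16621 genes kept), a model of all 30 libraries with a coefficient for each group (20 residual degrees of freedom), two-sided quasi-likelihood tests and Benjamini-Hochberg adjustment over all genes (threshold 0.05). The SE is the log2 difference divided by the square root of F. DESeq2 1.42.0 was an alternative, beside other scaling, no filter, a replicate block, a sex score from Xist and 44 Y-linked genes, only the libraries compared, and each library left out. Leaving out the 3 libraries that stood apart was chosen after seeing the data. No replicates were duplicated (smallest chi-square per degree of freedom 11.5). The fit was tested on simulated data. Tables were handled with Python 3.11.15 and pandas 2.3.3.

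The 10 genes and the lists were chosen with earlier results of these data known. Named genes were the 10, at most 2 each way per list by smallest adjusted p in SSRP1KO against NT (mean of the 5 times), the most similar gene, the nearest tested neighbour on each side, and Ssrp1. Of the genes this rule names, 1 is not reported here.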

Additional observations from a re-analysis of the deposited data

Results flagged for a closer look

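The table of repeat intervals, which the comparisons above do not use, had intervals that touch an exon in 8 of the 10 genes. In 4 of these 8 the signal was higher in SSRP1KO, in that the median of the 15 SSRP1KO libraries lay above the highest of the 15 NT libraries. The same held for 2.30% of the 75571 intervals of the table with at least 50 counts. That share is of single intervals, whether or not they touch an exon, while the intervals of a member were summed. Nothing is read from the difference, since the genes were also chosen for higher SSRP1KO levels. For Dcdc2a, 4 exon-touching intervals had a median of 0.700 CPM in SSRP1KO and at most 0.576 CPM in NT (337 against 50 counts in all), and 9 of 15 SSRP1KO libraries lay above every NT library. For Rab26 the median was 0.929 CPM against at most 0.782 CPM (10 of 15 libraries), for Enkur 0.295 CPM against at most 0.273 CPM (8 of 15), and for Tph2 0.140 CPM against at most 0.123 CPM (8 of 15), where NT held 6 counts in all. In the other 4 genes, 6 (Ido2), 5 (Il12a), 2 (Myo18b) and 0 (Tmc1) of 15 SSRP1KO libraries lay above every NT library. Intervals of Dcdc2a that lay in introns only had medians of 0.156 CPM in SSRP1KO and 0.168 CPM in NT. Whether the same reads were counted in both tables is not given in the sources used here.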

How the results depend on the processing

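The median difference between the arms over the 10 genes (2.02) ran from 1.69 to 2.07 with 1 library left out, and each gene's own difference stayed above 0 in all 36 alternatives. Members called in NT numbered 1 at 1dpc, 2 to 3 at 2dpc, 3 to 6 at 3dpc (6 with all libraries, 3 without NT 3dpc replicate 3 or NT no crush replicate 1) and 4 at 4dpc. Members called in SSRP1KO numbered 0 to 2 at 1dpc, 1 to 3 at 2dpc, 1 at 3dpc and 1 to 2 at 4dpc with 1 library left out. At 1dpc no filter, DESeq2 and the replicate block each gave 1 call, and leaving out the 3 libraries that stood apart gave 4. At 2dpc the block gave 1, and the sex score and the fit of only the libraries compared each gave 0, where the other counts were 3. At 3dpc the block and the fit without the 3 libraries each gave 2 and only the libraries compared gave 0. The cause was not tested, except that the fit of only the libraries compared has fewer samples. With that smaller filter Tph2 and Cd3e had no value in some NT comparisons.

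Replicate numbers did not pair the libraries: of 117 same-numbered pairs 7 had a correlation of deviations over 0.1 (range -0.25 to 0.21). With the block the median difference was 1.75, and of the named list genes Tmie (0.35, edgeR adjusted p = 0.184), Qprt (1.80, 0.132), Pts (-0.24, 0.124), Trpc1 (-0.23, 0.0645), Zap70 (1.04, 0.0811) and Cd5 (1.13, 0.11) were no longer called. Counts over all genes moved by over 1.5 times as well. At NT 1dpc 309 became 159 with the sex score, 885 with only the libraries compared, 990 without the 3 libraries and 562 with DESeq2. At NT 2dpc 3128 became 1946 with only the libraries compared, and at NT 4dpc 4513 became 2908 with the sex score. At SSRP1KO 1dpc 672 became 154 with the sex score, 253 with only the libraries compared, 1770 without the 3 libraries and 1084 with DESeq2. At SSRP1KO 2dpc 1939 became 693 with the block, 890 with the sex score and 181 with only the libraries compared, and at SSRP1KO 3dpc 2414 became 1191 in that last fit. Tph2, Enkur and Il12a in NT rest on few counts, which limits their folds.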
